A study of Mus musculus with 6 samples.

Results

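Chemokines and their receptors were followed in cells of the C2C12 myoblast line with and without Myod1, the gene of a transcription factor that drives muscle differentiation. The genes were chosen by their symbols, as ligands of the Ccl, Cxcl, Cx3cl and Xcl series and as receptors of the Ccr, Cxcr, Cx3cr and Ackr series. Of 28892 genes in the table, 43 fitted the rule. These were 28 ligands (14 Ccl, 13 Cxcl and Cx3cl1) and 15 receptors (7 Ccr, 4 Cxcr, Cx3cr1 and 3 Ackr). C2C12 is a mouse line grown from satellite cells of the thigh muscle of the C3H strain. Both groups were kept for 6 days in Ndiff227, a serum-free medium. In such medium the study saw myotubes with myosin heavy chain from C2C12 WT and floating spheres without it from C2C12 Myod1-/-. Genotype and this difference in cell state thus cannot be told apart here. The 3 C2C12 WT libraries came from wild type cells, and the 3 C2C12 Myod1-/- libraries from 1 clone, which was infected with a lentiviral CRISPR/Cas9 vector, selected with puromycin, grown from single cells and found to carry a homozygous deletion in exon 1. Whether C2C12 WT carried a vector is not given in the sources used here, and with 1 clone the deletion and the history of the clone cannot be told apart. Nothing in the labels says that replicates were separate cultures, and p-values then measure only the spread between these samples, which may be technical.

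Chemokines are small secreted proteins that guide migrating cells. They bind to G protein-coupled receptors that signal through Gi proteins, and they are named after the spacing of their first cysteines (CC, CXC, CX3C). Inflammatory chemokines are induced in many cell types by NF-kB and interferon signalling and attract leukocytes, whereas homeostatic chemokines such as Cxcl12 place cells in tissues. Atypical receptors (Ackr) bind chemokines without Gi signalling and mostly remove them. In muscle, chemokines from myogenic cells and macrophages take part in repair after injury, and Cxcr4 is present on migrating muscle precursors.

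Values are FPKM, that is, fragments per kilobase of a gene, scaled to the size of the library, which puts different genes on 1 scale. Orders between genes still depend on whether gene FPKM or the sum over the transcripts of a gene is used. Unless stated, gene FPKM are given. Myod1 was at 17.3, 25.8 and 27.7 FPKM in C2C12 WT and at 0.0614, 0 and 0 FPKM in C2C12 Myod1-/-, so the targeted gene followed the labels. The number of reads is unknown. If the commonest step between low values stands for 1 fragment, 69.4% to 72.8% of low values lay within 0.05 fragments of a whole or halved step. Of 9 muscle lineage genes, 8 fell in C2C12 Myod1-/- by the limma fit described below, beside 33.3% of all genes tested. Myf5 did not pass (adjusted p = 0.7 in that fit). Myod1, the targeted gene, and Myog, Myh3, Acta1 and Ckm passed the filter of 0.5 FPKM only through C2C12 WT and had to differ. The summed level of all 9 was 2476 to 2659 FPKM in C2C12 WT and 46.3 to 47.6 FPKM in C2C12 Myod1-/-. Mitochondrially encoded genes held 7.32% to 8.49% of all FPKM in C2C12 WT and 5.07% to 5.25% in C2C12 Myod1-/-. Whether these differences have a part in the chemokine values was not tested. In bulk RNA, fewer cells that express a gene and less RNA per cell cannot be told apart.

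Summed ligand RNA was several times more abundant in C2C12 Myod1-/- and summed receptor RNA was not. Over the 28 ligands, the summed level was 389.5, 431.8 and 444 FPKM in C2C12 WT and 2567.8, 2505.8 and 2428.9 FPKM in C2C12 Myod1-/-. All 3 knockout libraries were far above the wild type ones, and the sum rose from 0.131% to 0.144% of all FPKM to 0.838% to 0.875%. Over the 15 receptors, the summed level was 16.2, 18.2 and 18.2 FPKM in C2C12 WT and 16.1, 13.9 and 16.4 FPKM in C2C12 Myod1-/-, and the groups overlapped. Ackr3 alone held 51.4% to 58.0% of this sum in C2C12 WT and 79.5% to 83.7% in C2C12 Myod1-/-. The overlap of the sums thus does not mean that single receptors were unchanged.

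Tests were made for genes whose mean over the 6 libraries reached 0.5 FPKM. Of the members 17 ligands and 4 receptors did, 7 of these 21 with 1 genotype under 0.5 FPKM. Changes were called at an adjusted p under 0.05 (Benjamini-Hochberg over all 14045 genes tested) in a limma fit of log2(FPKM + 0.1). Among the ligands tested, 13 rose, none fell and 4 did not pass. Of all genes tested, 27.9% rose and 33.3% fell by this rule. Counting by the thresholds of the study (a log2 change of at least 1 and a p of at most 0.05), 11 ligands rose and none fell, where 8.67% of all genes rose and 11.7% fell. Among the receptors tested, Ackr3 rose, Cxcr4 and Ackr4 fell, and Ccr10 did not pass. The median log2 fold change was 2.37 over the 17 ligands, -1.28 over the 4 receptors and -0.05 over all genes tested. In 13 of the 17 ligands all knockout libraries were above all wild type ones, as in 31.4% of all genes tested, and in none were all below, as in 36.5%. Members that passed the filter through 1 genotype had to differ in their means, which does not by itself fix the call. Ccl17 and Ccr10 were among these and were not called. No test over the members was made.

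**Figure D1:**
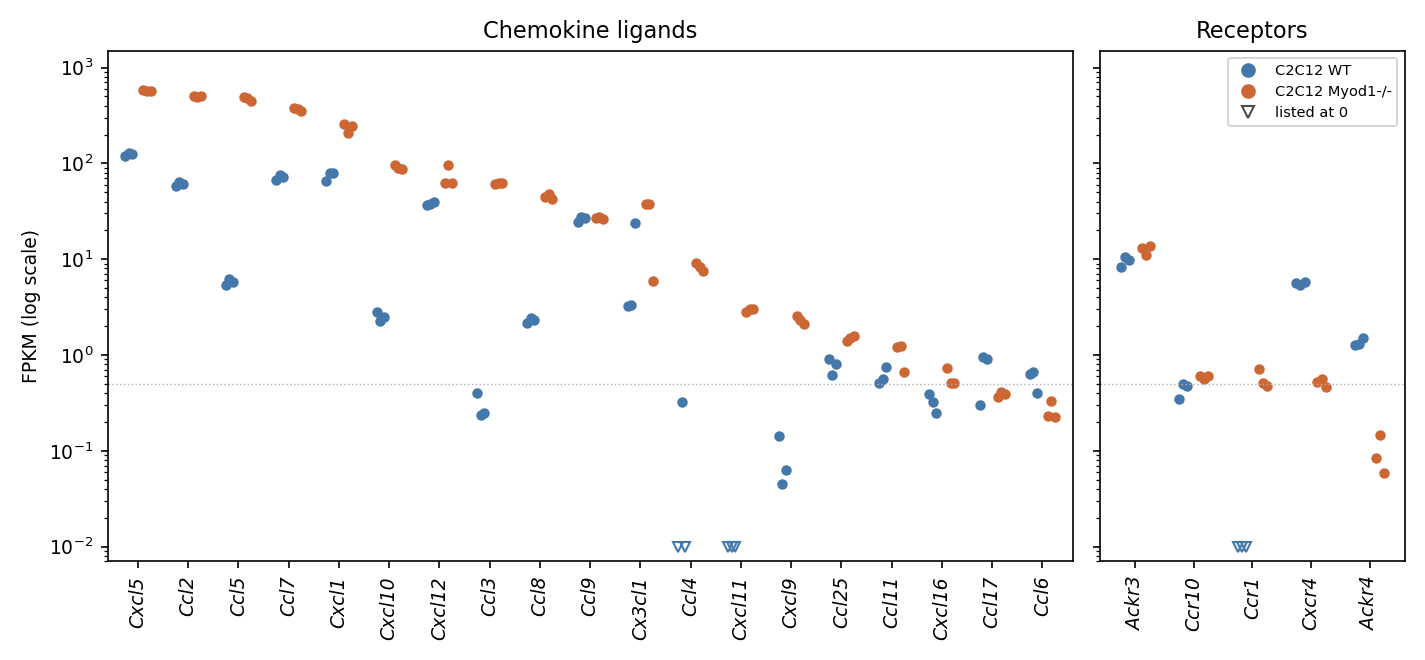
FPKM on a log axis of the 24 chemokine genes that averaged 0.5 FPKM (dotted line) or more in C2C12 WT (blue) or C2C12 Myod1-/- (orange), 1 point per library, with ligands on the left and receptors on the right. Open triangles mark libraries listed at 0, as all 3 C2C12 WT libraries of Cxcl11 and Ccr1.

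The genes of the monocyte chemoattractants lie side by side on chromosome 11 (GRCm38, 82035571 to 82116799). Ccl2, the main ligand of Ccr2 on monocytes, was at 58.6, 64.1 and 60.7 FPKM in C2C12 WT and at 510.0, 495 and 505 FPKM in C2C12 Myod1-/-. Ccl7, which also binds Ccr2, was at 66.7, 75.4 and 71.4 FPKM in C2C12 WT and at 378, 370 and 354 FPKM in C2C12 Myod1-/-. Both were well expressed already in C2C12 WT, and the groups stood far apart. Ccl2 rose by 3.04 ± 0.04 (log2 fold change ± SE, adjusted p = 6.44e-08) and Ccl7 by 2.37 ± 0.06 (adjusted p = 3.37e-07). By gene FPKM the ratio of Ccl7 to Ccl2 was 1.14 to 1.18 in the C2C12 WT libraries and 0.702 to 0.747 in the C2C12 Myod1-/- libraries. This turnover was not seen with summed transcripts, where Ccl2 was above Ccl7 in every library. In C2C12 WT the sums were 75.0, 83.9 and 78.6 FPKM for Ccl2 and 66.4, 75.4 and 71.4 FPKM for Ccl7.

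Ccl8 (MCP-2), a further ligand for monocytes at the end of this group of genes, was low in C2C12 WT with 2.15, 2.42 and 2.32 FPKM. It reached 44.1, 47.4 and 42.3 FPKM in C2C12 Myod1-/-, a log2 fold change of 4.22 ± 0.07 (adjusted p = 9.07e-08). Ccl11 (eotaxin), an eosinophil attractant that lies between Ccl7 and Ccl8, was at 0.515, 0.564 and 0.757 FPKM in C2C12 WT and at 1.21, 1.24 and 0.666 FPKM in C2C12 Myod1-/-. Its groups overlapped through knockout library 3, and the log2 fold change of 0.65 ± 0.27 did not pass (adjusted p = 0.0759). Without that library it was 0.91 (adjusted p = 0.0132), and with quantile normalization 0.87 (adjusted p = 0.0308). Of the 4 genes of this group, 3 rose, beside 27.9% of all genes tested.

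The second group of CC genes on chromosome 11 (GRCm38, 83525778 to 83664683) held ligands with large fold changes and one for which no difference was detected. Ccl5 (RANTES), which attracts T cells and monocytes through receptors such as Ccr1 and Ccr3, was at 5.35, 6.20 and 5.83 FPKM in C2C12 WT and at 493, 480.2 and 453 FPKM in C2C12 Myod1-/-. Its log2 fold change was 6.34 ± 0.06 (adjusted p = 2.31e-08). By gene FPKM the ratio of Ccl5 to Ccl2 was 0.0913 to 0.0967 in C2C12 WT and 0.899 to 0.970 in C2C12 Myod1-/-. Ccl5 thus came close to the level of Ccl2. With summed transcripts Ccl5 was above Ccl2 in each C2C12 Myod1-/- library, at 858, 657 and 807 against 673, 650 and 661 FPKM.

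Ccl3 (MIP-1α), a ligand of Ccr1, was near the limit of detection in C2C12 WT, with 0.404, 0.239 and 0.249 FPKM. At the inferred step these values stand for 3 to 5 fragments. In C2C12 Myod1-/- it was at 61.3, 62.8 and 63.1 FPKM, and the log2 fold change of 7.32 ± 0.16 (adjusted p = 2.3e-07) was the highest of the ligands tested at this pseudocount. It was 7.71 with 0.01 FPKM, where Ccl4 (8.02) was higher, as was Cxcl11, which was listed at 0 in C2C12 WT. It was 5.61 with 1 FPKM, where Ccl5 (6.13) was higher. Ccl4 (MIP-1β), the neighbour of Ccl3, was listed at 0, 0.324 and 0 FPKM in C2C12 WT and at 9.20, 8.37 and 7.58 FPKM in C2C12 Myod1-/-. The groups did not overlap, and the log2 fold change was 5.71 ± 0.57 (adjusted p = 0.000192). With so low a level in C2C12 WT its size depended on the pseudocount, from 3.09 at 1 FPKM to 8.02 at 0.01 FPKM, and the call was kept at both.

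Ccl9 (MIP-1γ), a mouse ligand of Ccr1 whose gene lies between Ccl5 and Ccl3, was at 24.2, 27.4 and 27.2 FPKM in C2C12 WT and at 27.0, 27.9 and 26.6 FPKM in C2C12 Myod1-/-. The groups overlapped, and the log2 fold change was 0.05 with a 95% interval of -0.09 to 0.19 (adjusted p = 0.499). Ccl6, another mouse CC ligand beside it, was at 0.629, 0.663 and 0.403 FPKM in C2C12 WT and at 0.231, 0.333 and 0.225 FPKM in C2C12 Myod1-/-. The knockout libraries were lower in each case, yet Ccl6 lay under the filter of the main test. In a fit without the filter its log2 fold change was -0.86 (adjusted p = 0.0451). Of the 4 genes of this group that were tested, 3 rose, beside 27.9% of all genes tested. Among these, Ccl3 and Ccl4 passed the filter only through C2C12 Myod1-/- and had to differ.

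**Figure D2:**
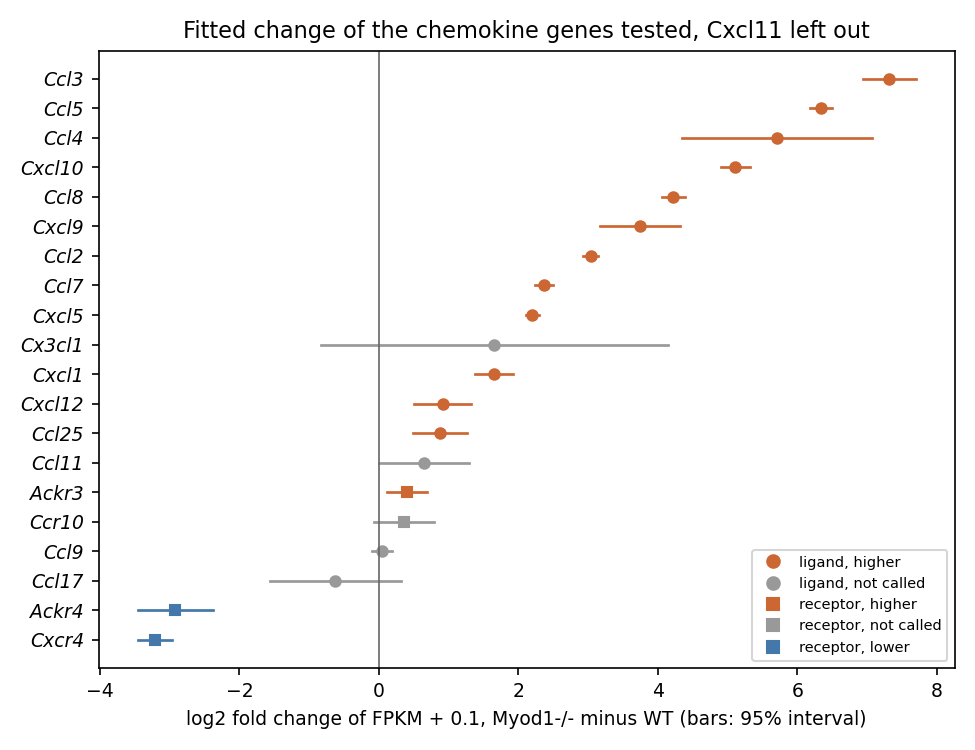
Log2 fold change of FPKM + 0.1, C2C12 Myod1-/- minus C2C12 WT, with the 95% interval of the limma fit for 16 ligands (circles) and 4 receptors (squares). Orange marks genes that rose, blue genes that fell and grey genes that did not pass; Cxcl11 is left out, since it was listed at 0 in C2C12 WT. Ccl3 stands at 7.32 at the top and Cxcr4 at -3.21 at the bottom.

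Among CXC ligands, the neutrophil attractants were abundant in both genotypes. They act through Cxcr2, and their genes form a group on chromosome 5 (GRCm38, 90759360 to 90905938). Cxcl5 (LIX), the most abundant ligand in each of the 6 libraries by gene FPKM, was at 121, 128 and 127 FPKM in C2C12 WT and at 585, 577 and 565 FPKM in C2C12 Myod1-/-. It rose by 2.20 ± 0.04 on the log2 scale (adjusted p = 1.21e-07). Cxcl1 (KC), a classic NF-kB target in mouse cells, was at 65.1, 80.3 and 79.8 FPKM in C2C12 WT and at 255, 206 and 247 FPKM in C2C12 Myod1-/-. It rose by 1.65 ± 0.11 (adjusted p = 3.49e-05). With summed transcripts Cxcl1 was above Cxcl5 in C2C12 WT libraries 2 and 3, at 146 and 145 against 141 and 140 FPKM. Ccl2 and Ccl5 were then above Cxcl5 in every C2C12 Myod1-/- library. The other members in this stretch were hardly detected. Cxcl2, Cxcl3 and Cxcl15 reached at most 0.279, 0.0567 and 0.422 FPKM in any library, although Cxcl1, Cxcl2 and Cxcl3 are close paralogs. Ppbp and Pf4, chemokine genes in the same stretch whose symbols lie outside the rule, were at 2.17 to 2.79 and 0.515 to 0.889 FPKM in C2C12 WT and at 2.74 to 3.64 and 0 to 0.220 FPKM in C2C12 Myod1-/-; Ppbp did not pass (adjusted p = 0.0914) and Pf4 lay under the filter.

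Cxcl9, Cxcl10 and Cxcl11, the interferon-inducible ligands of Cxcr3 that attract activated T cells, lie together on chromosome 5 (GRCm38, 92321347 to 92365485). All 3 rose, beside 27.9% of all genes tested. Cxcl9 and Cxcl11 passed the filter only through C2C12 Myod1-/- and had to differ. Cxcl10 (IP-10) was at 2.82, 2.27 and 2.51 FPKM in C2C12 WT and at 95.4, 89.0 and 87.0 FPKM in C2C12 Myod1-/-, with a log2 fold change of 5.11 ± 0.09 (adjusted p = 9.74e-08). Cxcl9 (MIG) was much lower, at 0.144, 0.0456 and 0.0634 FPKM in C2C12 WT and at 2.57, 2.31 and 2.08 FPKM in C2C12 Myod1-/-. Its log2 fold change was 3.75 ± 0.24 (adjusted p = 2.32e-05) and ran from 1.61 to 4.76 with the pseudocount. Cxcl11 (I-TAC), which the annotation classes as a polymorphic pseudogene, was listed at 0 throughout C2C12 WT and at 2.78, 3.05 and 3.06 FPKM in C2C12 Myod1-/- (adjusted p = 1.19e-06). In the C2C12 Myod1-/- libraries Cxcl10 was 37.1 to 41.7 times as abundant as Cxcl9 by gene FPKM. The ratio was larger with summed transcripts, at 193, 180 and 176 FPKM for Cxcl10 and 2.69, 2.41 and 2.18 FPKM for Cxcl9. Art3, a gene listed within the same stretch, was at 0.0147 to 0.245 FPKM, and reads shared with overlapping genes cannot be told apart without strand.

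Bases around the start of some of these genes are shown, since members that rose and the neighbour that did not can then be compared letter by letter. Windows of 250 bases before to 50 after the start were taken from RefSeq (GRCm38.p6), where 30 members had one. The windows were searched on both strands for the NF-kB consensus, named here without its degenerate letters, and for the interferon-stimulated response element, written GAAANNGAAA. Of all genes with a window, 5.14% held the first and 3.99% the second in at least 1 window. Of the 19 ligands at or above 0.5 FPKM in either genotype 11 had a window, and abundant ones such as Ccl2, Ccl5, Ccl7 and Cxcl5 are thus not covered. Among the 11, Cxcl10, Cxcl1 and Ccl9 held an NF-kB match and Cxcl10 held both motifs. Among 4 such receptors, neither motif was found. In the sequences the matches are in capitals. Only the 250 bases before the start are printed. They lie at chr5:92348890-92349139 (- strand) for Cxcl10, chr5:90890995-90891244 (+ strand) for Cxcl1, chr11:83578637-83578886 (- strand) for Ccl9, chr5:92328080-92328329 (- strand) for Cxcl9 and chr11:83649379-83649628 (- strand) for Ccl3.
Cxcl10: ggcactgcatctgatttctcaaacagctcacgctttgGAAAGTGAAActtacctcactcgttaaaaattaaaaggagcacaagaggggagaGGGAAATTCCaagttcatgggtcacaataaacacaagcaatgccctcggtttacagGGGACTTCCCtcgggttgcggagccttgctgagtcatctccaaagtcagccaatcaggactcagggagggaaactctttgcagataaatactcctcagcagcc
Cxcl1: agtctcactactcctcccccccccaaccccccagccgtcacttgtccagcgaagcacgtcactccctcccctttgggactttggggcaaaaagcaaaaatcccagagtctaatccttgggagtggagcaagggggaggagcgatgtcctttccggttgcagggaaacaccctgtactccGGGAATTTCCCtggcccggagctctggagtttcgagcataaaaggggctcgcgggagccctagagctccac
Ccl9: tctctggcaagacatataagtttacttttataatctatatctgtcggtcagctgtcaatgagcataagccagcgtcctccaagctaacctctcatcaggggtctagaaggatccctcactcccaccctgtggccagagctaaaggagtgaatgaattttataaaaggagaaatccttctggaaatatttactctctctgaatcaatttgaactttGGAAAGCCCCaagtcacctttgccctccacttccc
Cxcl9: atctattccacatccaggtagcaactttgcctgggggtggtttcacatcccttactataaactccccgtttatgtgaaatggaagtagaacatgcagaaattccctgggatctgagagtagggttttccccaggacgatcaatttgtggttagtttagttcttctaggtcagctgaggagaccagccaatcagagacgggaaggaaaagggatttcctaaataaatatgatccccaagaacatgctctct
Ccl3: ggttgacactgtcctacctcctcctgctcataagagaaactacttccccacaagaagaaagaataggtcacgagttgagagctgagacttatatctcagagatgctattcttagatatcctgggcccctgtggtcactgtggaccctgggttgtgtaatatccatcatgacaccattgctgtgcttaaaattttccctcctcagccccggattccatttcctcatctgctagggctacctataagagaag
In Cxcl10 the response element began at base -213 and the NF-kB matches at bases -159 and -103, counted from the first base before the start as -1. In Cxcl1 matches on both strands began at -71 and -70 and overlap in 1 run, and in Ccl9 the match began at -35. No match of 1 motif overlapped one of the other. Cxcl2 and Cxcl3, which were hardly detected, held NF-kB matches at -97 and -96 and at -73 and -72. Cxcl9 and Ccl3, which rose, held neither. A match is a string of letters and no measurement of binding, and the lack of one says only that these letters are not in the window.

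Cxcl12 (SDF-1), the homeostatic ligand of Cxcr4 and Ackr3, was at 36.4, 37.9 and 39.8 FPKM in C2C12 WT and at 62.0, 95.7 and 62.4 FPKM in C2C12 Myod1-/-. It rose by 0.92 ± 0.17 on the log2 scale (adjusted p = 0.00368). The second knockout library stood apart from the others, and without it the log2 fold change was 0.71 (adjusted p = 0.00027). In that library the transcript ENSMUST00000112866 was at 141 FPKM, whereas it was at 0.349 to 14.3 FPKM in the other 5. The transcript with the highest mean, ENSMUST00000112871, was at 62.2, 65.9 and 63.6 FPKM in C2C12 WT and at 94.1, 105 and 89.9 FPKM in C2C12 Myod1-/-, and its groups did not overlap. When the transcripts of each gene were summed, Cxcl12 did not pass (log2 fold change 0.73, adjusted p = 0.172).

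Cx3cl1 (fractalkine), a membrane-bound ligand that is shed by Adam10 and Adam17, varied more within each genotype than its means did between them (2.66-fold). It was at 3.22, 3.29 and 23.8 FPKM in C2C12 WT and at 37.4, 37.3 and 5.93 FPKM in C2C12 Myod1-/-. Libraries numbered 3 went against the others of their genotype, and the log2 fold change of 1.66 ± 1.03 did not pass (adjusted p = 0.206). Without C2C12 WT library 3 it was 2.60 (adjusted p = 0.0495), and it was 2.54 without C2C12 Myod1-/- library 3 (adjusted p = 0.0632). Highest and lowest library differed 7.40-fold within C2C12 WT and 6.31-fold within C2C12 Myod1-/-. Of 7810 genes that averaged 5 FPKM or more, 6 ranged over 5-fold within both genotypes, and the other 11 chemokine genes at that level ranged at most 1.69-fold and 1.54-fold. The transcript ENSMUST00000034230 had the same pattern, with 3.69, 3.76 and 28.03 FPKM in C2C12 WT and 43.6, 43.5 and 6.81 FPKM in C2C12 Myod1-/-.

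**Figure D3:**
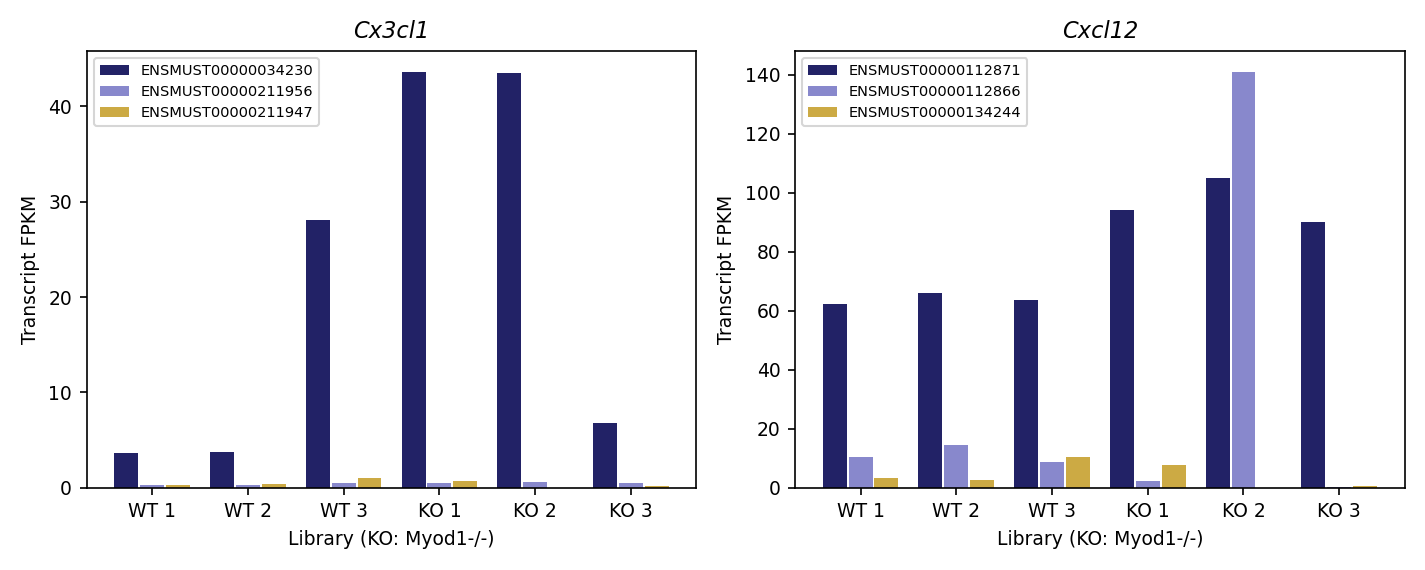
FPKM of the 3 transcripts with the highest mean of Cx3cl1 (left) and Cxcl12 (right) in each library, WT for C2C12 WT and KO for C2C12 Myod1-/-. ENSMUST00000034230 of Cx3cl1 is low in WT 1, WT 2 and KO 3, and ENSMUST00000112866 of Cxcl12 is high in KO 2 alone, at 141 FPKM.

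The remaining ligands at or above 0.5 FPKM were low. Ccl25 (TECK), the ligand of Ccr9 in gut and thymus, was at 0.913, 0.615 and 0.796 FPKM in C2C12 WT and at 1.41, 1.49 and 1.56 FPKM in C2C12 Myod1-/-, and rose by 0.88 ± 0.16 on the log2 scale (adjusted p = 0.0033). Its 1-exon transcript ENSMUST00000207925 was at 0.449 to 0.830 FPKM in C2C12 WT and at 1.59 to 1.93 FPKM in C2C12 Myod1-/-. The groups of ENSMUST00000207839 (1 exon) and ENSMUST00000098949 (4 exons) did not overlap either. Those of other transcripts, such as ENSMUST00000024004 (6 exons), did. Ccl17 (TARC), a ligand of Ccr4, was at 0.301, 0.950 and 0.903 FPKM in C2C12 WT and at 0.361, 0.407 and 0.393 FPKM in C2C12 Myod1-/-. Its first C2C12 WT library was lower than each knockout library, and the log2 fold change of -0.62 did not pass (adjusted p = 0.209). Without that library it was -1.08 (adjusted p = 0.00254). Cxcl16, a transmembrane ligand of Cxcr6, was at 0.389, 0.323 and 0.249 FPKM in C2C12 WT and at 0.724, 0.504 and 0.515 FPKM in C2C12 Myod1-/-. It lay under the filter of the main test, and in a fit without it the difference did not pass (adjusted p = 0.0707).

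The make-up of the ligand RNA changed as well. Ccl5 made up 1.31% to 1.44% of the summed ligand FPKM in C2C12 WT and 18.7% to 19.2% in C2C12 Myod1-/-. Cxcl12 went from 8.77% to 9.35% down to 2.41% to 3.82%, although its own level rose, and Ccl9 from 6.12% to 6.34% down to 1.05% to 1.11%. Cxcl5 stayed first by gene FPKM with 28.5% to 31.0% and 22.8% to 23.3%. In C2C12 WT the order by mean was Cxcl5, Cxcl1, Ccl7, Ccl2, Cxcl12, Ccl9, where the libraries of Cxcl1 and Ccl7 overlapped. In C2C12 Myod1-/- it was Cxcl5, Ccl2, Ccl5, Ccl7, Cxcl1, Cxcl10, Cxcl12, Ccl3, where the libraries of Cxcl12 overlapped with those of Cxcl10 and of Ccl3. Shares and orders are those of gene FPKM, and the orders changed with summed transcripts. In each C2C12 Myod1-/- library Ccl5 and Ccl2 were then above Cxcl5. Cxcl1 (477, 382 and 462 FPKM) was above Ccl7 (374, 365 and 350 FPKM). In each C2C12 WT library Cxcl12 was above Ccl7.

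**Figure D4:**
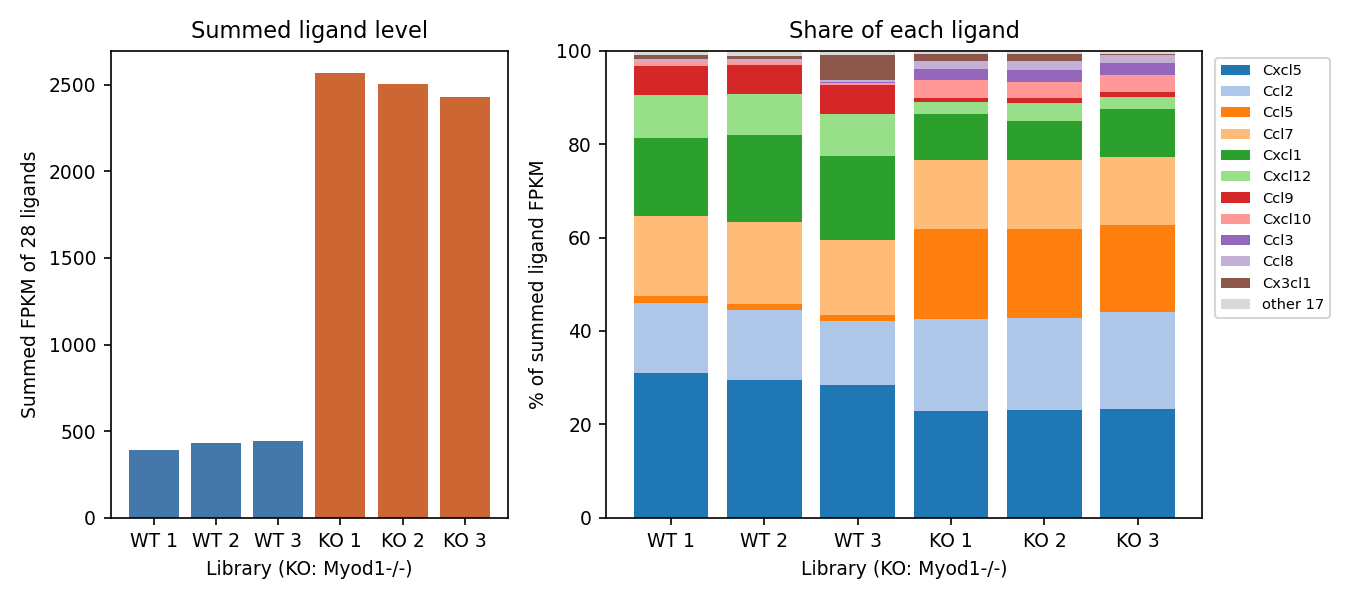
Summed FPKM of the 28 ligands in each library (left) and the percentage of that sum held by each of 11 ligands and by the other 17 together (right), WT for C2C12 WT and KO for C2C12 Myod1-/-. The sum is 389.5 to 444 FPKM in WT and 2428.9 to 2567.8 FPKM in KO, and Ccl5 is a thin band in WT and a broad one in KO.

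Only a few receptors were detected. Cxcr4, the signalling receptor of Cxcl12, was at 5.68, 5.33 and 5.78 FPKM in C2C12 WT and at 0.522, 0.562 and 0.463 FPKM in C2C12 Myod1-/-. It fell by 3.21 ± 0.10 on the log2 scale (adjusted p = 1.16e-06), with libraries far apart. Ackr3 (Cxcr7), the atypical receptor of Cxcl12 and Cxcl11, was at 8.32, 10.6 and 9.77 FPKM in C2C12 WT and at 13.2, 11.04 and 13.7 FPKM in C2C12 Myod1-/-. All knockout libraries were higher, and the log2 fold change was 0.40 ± 0.12 (adjusted p = 0.0245). This call was lost without library 1 or library 3 of either genotype (adjusted p = 0.0555 and 0.0544 for C2C12 WT, 0.0744 and 0.0772 for C2C12 Myod1-/-), with log2 fold changes of 0.31 to 0.42. The ratio of Ackr3 to Cxcr4 was 1.46 to 1.99 in C2C12 WT and 19.7 to 29.7 in C2C12 Myod1-/-, mostly through the lower Cxcr4. Their ligand Cxcl12 rose in the gene table but did not pass with summed transcripts.

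Ackr4, the scavenger of Ccl19, Ccl21 and Ccl25, was at 1.28, 1.32 and 1.51 FPKM in C2C12 WT and at 0.0850, 0.147 and 0.0590 FPKM in C2C12 Myod1-/-. It fell by 2.92 ± 0.22 on the log2 scale (adjusted p = 5.57e-05), whereas Ccl25 rose in the gene table. Ackr4 passed the filter only through C2C12 WT and had to differ. Ccr10, the receptor of Ccl27 and Ccl28, was at 0.350, 0.495 and 0.475 FPKM in C2C12 WT and at 0.604, 0.563 and 0.601 FPKM in C2C12 Myod1-/-. Its knockout libraries were all higher, and the log2 fold change of 0.36 ± 0.18 did not pass (adjusted p = 0.124). With quantile normalization Ccr10 passed (log2 fold change 0.66, adjusted p = 0.0356), as it did in limma without a trend (adjusted p = 0.0415). Ccr1, a receptor of Ccl3, Ccl5, Ccl7 and Ccl9, was listed at 0 throughout C2C12 WT and at 0.706, 0.506 and 0.478 FPKM in C2C12 Myod1-/-, which stand for 35, 24 and 23.5 fragments at the inferred step. It lay under the filter of the main test and passed in a fit without it (adjusted p = 0.000143).

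The other 19 members, 9 ligands and 10 receptors, stayed at or under 0.496 FPKM in every library. The highest of them was Ccr7, the lymph node homing receptor, at 0.0939, 0 and 0.193 FPKM in C2C12 WT and at 0.361, 0.483 and 0.496 FPKM in C2C12 Myod1-/-. In a fit without the filter Ccr7 rose (adjusted p = 0.0271) and Cxcl14 fell (adjusted p = 0.0442), the latter from at most 0.0836 FPKM to a listing at 0 in all 3 libraries. Ccr4, Ccr8, Ccr9, Cxcr1, Cxcr5, Cxcr6, Cx3cr1 and Ackr2 were among these receptors, at most 0.340 FPKM. Ccl22, Ccl27a, Ccl28, Cxcl2, Cxcl3, Cxcl13, Cxcl15 and Cxcl17 made up the rest of these ligands, at most 0.422 FPKM. Ccl27a has near-identical copies in the mouse genome, and its value is uncertain. Ccr2, Ccr3, Cxcr2 and Cxcr3, the main receptors of the abundant ligands, were not analysed here.

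Other genes of the chemokine system were counted in 4 lists. Among genes related to chemokines and their receptors, 3 of 7 tested rose and 1 fell, beside 27.9% and 33.3% of all genes tested, with a median log2 fold change of 0.32. Ccrl2, an atypical receptor that presents chemerin, was at 0.441, 0.3996 and 0.363 FPKM in C2C12 WT and at 6.10, 7.61 and 6.35 FPKM in C2C12 Myod1-/-, and rose by 3.76 ± 0.12 on the log2 scale (adjusted p = 1.37e-06). Cmklr1, the signalling receptor of chemerin, was at 1.79, 1.56 and 1.79 FPKM in C2C12 WT and at 0.197, 0.123 and 0.271 FPKM in C2C12 Myod1-/-, and fell by 2.64 ± 0.22 (adjusted p = 8.55e-05). Ccrl2 and Cmklr1 each passed the filter through 1 genotype only and had to differ. Chemerin itself (Rarres2) rose slightly, from a mean of 4.48 to 5.81 FPKM (adjusted p = 0.00679). Cd74, a receptor of the cytokine Mif, rose from a mean of 3.79 to 6.43 FPKM (adjusted p = 0.00915), and Mif itself ranged from 299 to 482 FPKM in C2C12 WT and from 269 to 479 FPKM in C2C12 Myod1-/- (adjusted p = 0.903).

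Of the genes that act below chemokine receptors, 6 of 23 tested rose and 11 fell, beside 27.9% and 33.3% of all genes tested, with a median log2 fold change of -0.30. The share that rose was near that of all genes. Gnai2, the Gi subunit with the highest level, was at 167, 184 and 173 FPKM in C2C12 WT and at 87.7, 89.6 and 87.0 FPKM in C2C12 Myod1-/-, and fell by 0.98 ± 0.05 (adjusted p = 6.18e-06). The small GTPase Cdc42 fell from a mean of 131 to 90.5 FPKM (adjusted p = 3.42e-05), and Elmo1, an adaptor of Dock proteins that activate Rac, fell from a mean of 0.944 to 0.0747 FPKM (adjusted p = 9.16e-05). Elmo1 passed the filter only through C2C12 WT and had to differ. In contrast, the kinase Jak2 rose from a mean of 14.3 to 62.1 FPKM (adjusted p = 1.72e-07) and the exchange factor Vav3 from a mean of 3.94 to 13.5 FPKM (adjusted p = 7.35e-06). The G protein subunit Gnb2 was at a mean of 73.8 and 69.2 FPKM (adjusted p = 0.417).

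Of the genes for cleavage, shedding and heparan sulfate binding of chemokines, 10 of 14 tested rose and 2 fell, beside 27.9% and 33.3% of all genes tested, with a median log2 fold change of 0.86. The metalloproteinase Mmp9, which cleaves several CXC ligands, was at 3.997, 5.19 and 4.41 FPKM in C2C12 WT and at 94.9, 87.2 and 97.5 FPKM in C2C12 Myod1-/-, and rose by 4.34 ± 0.10 (adjusted p = 3.14e-07). Mmp2 rose from a mean of 154 to 397 FPKM (adjusted p = 7.52e-07) and Mmp14 from 58.0 to 183 FPKM (adjusted p = 3.01e-07). The heparan sulfate proteoglycan Sdc1 rose from a mean of 84.9 to 213 FPKM (adjusted p = 1.2e-06), and Sdc2 fell from 203 to 156 FPKM (adjusted p = 0.000168).

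The list of transcription factors and cytokines that induce chemokine genes also holds feedback inhibitors of NF-kB such as Nfkbia. Of its 18 genes tested, 17 rose and Irf3 fell, beside 27.9% and 33.3% of all genes tested, with a median log2 fold change of 1.19. Il1a, Tnf and Ifnb1 are among those that passed the filter only through C2C12 Myod1-/- and had to differ. Interleukin-1 alpha (Il1a) was at 0.110, 0.139 and 0.221 FPKM in C2C12 WT and at 47.1, 48.1 and 47.4 FPKM in C2C12 Myod1-/-, and rose by 7.56 ± 0.16 (adjusted p = 2.18e-07). Interferon beta (Ifnb1) was listed at 0, 0 and 0.0364 FPKM in C2C12 WT and at 4.21, 5.56 and 4.23 FPKM in C2C12 Myod1-/- (adjusted p = 2.5e-06), and Tnf at 0.0755, 0 and 0 FPKM in C2C12 WT and at 2.55, 2.92 and 3.23 FPKM in C2C12 Myod1-/- (adjusted p = 1.68e-05). Nfkbia, a feedback inhibitor of NF-kB, rose from a mean of 45.6 to 113 FPKM (adjusted p = 3.92e-05), and the subunit Nfkb2 from 32.8 to 55.6 FPKM (adjusted p = 0.00034). These lists were drawn up with earlier results of the same libraries known, and their counts are no independent evidence.

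**Figure D5:**
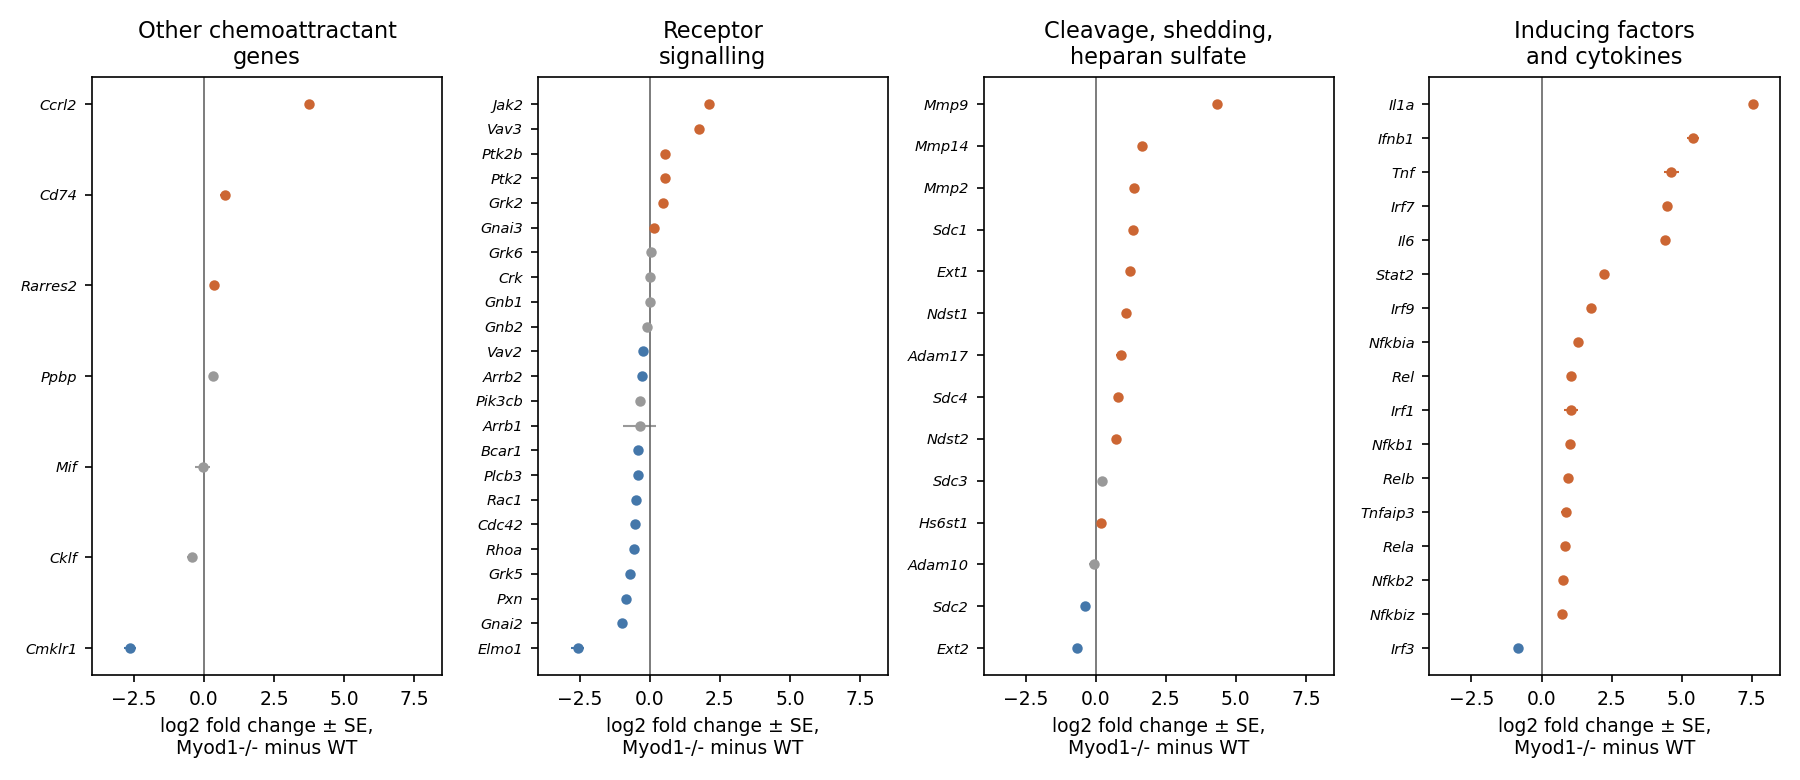
Log2 fold change of FPKM + 0.1 (C2C12 Myod1-/- minus C2C12 WT, point ± SE of the limma fit) of tested genes in the 4 lists of other genes of the chemokine system, with 1 gene of the list on the right not shown. Orange marks genes that rose, blue genes that fell and grey genes that did not pass; in that list all shown but Irf3 rose, with Il1a at 7.56.

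Defining markers of leukocytes, which respond to chemokines and also make them, were near 0 in both genotypes. Ptprc (CD45), a marker of all nucleated blood cells, was at most 0.0218 FPKM in any library. The macrophage markers Adgre1 and Csf1r were at 0.160 to 0.366 and 0.206 to 0.244 FPKM over the 6 libraries, with overlapping groups. Over the 14 leukocyte markers listed, 11 had a mean under 0.5 FPKM, and the summed level was 13.8 to 16.1 FPKM in C2C12 WT and 75.4 to 76.5 FPKM in C2C12 Myod1-/-. Cd14 rose from a mean of 6.28 to 47.0 FPKM and Cd68 from 6.32 to 26.9 FPKM, and both are also made by other cells, whereas Lyz2, a myeloid lysozyme, fell from 1.77 to 1.19 FPKM. The 4 endothelial markers listed summed to at most 0.207 FPKM, with Pecam1 at most 0.108 FPKM, and the 3 epithelial markers listed to at most 0.354 FPKM. Of 4 fibroblast markers tested, Pdgfra and Dcn rose and Col1a1 and Col3a1 fell, beside 27.9% and 33.3% of all genes tested. Thy1, also listed, was at most 0.0255 FPKM. The summed level of the 5 fibroblast markers was 2458.5 to 2653.5 FPKM in C2C12 WT and 1265.6 to 1286.5 FPKM in C2C12 Myod1-/-.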

How the data were processed

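RNA sequencing libraries of C2C12 WT and C2C12 Myod1-/- (3 each) were made by the authors from rRNA-depleted total RNA (NEBNext Ultra kit, NovaSeq). Reads were cleaned with fastp, mapped to GRCm38 with HISAT2 or TopHat and quantified with StringTie. Versions, the annotation and strand handling are not given in the sources used here, so that overlapping genes on opposite strands cannot be told apart. The deposited FPKM of 28892 genes and 92513 transcripts were used, and the files hold no counts. FPKM are shares of a library, and a large change in abundant genes moves all others. Columns carry short codes and were assigned to samples through the study's table of differential genes, whose headings name genotype and replicate: 3192 genes matched in all 6 columns within a relative tolerance of 0.001.

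Genes that averaged 0.5 FPKM or more were fitted as log2(FPKM + 0.1) with limma 3.58.1 (R 4.3.3, trend, genotype only), after a test on simulated data, and adjusted by Benjamini-Hochberg over all of them. Fold changes on this scale understate low genes. Tables were made with pandas 2.3.3. Alternatives were other pseudocounts, filters and scalings, no trend, a replicate block, summed transcripts and each library left out. Members and lists were chosen with earlier results of these data known. Members that averaged 0.5 FPKM or more in either genotype are named. From each other list at most 3 genes by level and at most 3 called genes by size of change are named. Irf3, Ppbp, Pf4, Art3, the muscle lineage genes other than Myod1 and the fibroblast genes were named after their values were seen. All 43 positions matched GENCODE M21. Some genes are counted but not reported here by name.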

Additional observations from a re-analysis of the deposited data

How the results depend on the processing

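Over 15 other settings, 14 of the 21 members tested kept direction and call in each, and 298 of 311 fits in all. The count of ligands that rose, 13 as reported, was 13 to 14 when 1 library was left out and 14 with quantile normalization. Ligands that fell, none as reported, numbered 2 without the filter on low values (Ccl6 and Cxcl14), 1 with summed transcripts (Ccl6) and 0 to 1 with 1 library left out. Receptors that rose, 1 as reported, numbered 3 without the filter (Ackr3, Ccr1 and Ccr7), 2 with quantile normalization, 2 without a trend and 0 to 1 with 1 library left out. With a mean of at least 1 FPKM 2 receptors were tested, and 1 of them fell by either rule. The log2 fold change of Ccl9 was -0.0072 to 0.0814 with 1 library left out, the lowest being without C2C12 WT library 1. Summed transcripts gave 2602 genes that rose against 3914 in the gene table, and the cause was not tested. Same-numbered libraries did not deviate together (r of -0.103, -0.138 and -0.029). With the replicate block 13 ligands and 0 receptors rose, Ackr3 having an adjusted p of 0.0585, and no other call of a member changed. At the depth inferred from the steps, values under 0.5 FPKM rest on few fragments.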
